A study of Homo sapiens with 18 samples.

Results

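MicroRNA genes were represented by 173 of the 33297 probe sets on the array, each for a different gene. They were chosen as all probe sets whose single annotated gene symbol is MIR followed by a digit, or MIRLET, with host genes ending in HG left out. Of these 173, 54 exceeded their array's 40th signal percentile at least 3 times in the 18 arrays and entered the tests. The other 119 did not, 109 of them on no array at all. Among all 19460 probe sets with a single symbol, 15009 (77.1%) passed the same filter, against 31.2% of the microRNA probe sets. The microRNA probe sets were dim as a class: their mean log2 signal over the 18 arrays ran between 2.29 and 8.52 with a median of 4.21, against a median of 6.53 for all single-symbol probe sets. At the edge of the filter, MIR429 (mean 5.28), MIR7-2 (5.26) and MIR99A (5.17) passed on 3 arrays, whereas MIR124-2 (5.10), MIR130B (5.06), MIR134 (5.10), MIR138-2 (4.88) and MIR30E (4.80) were above the percentile on 2 arrays and were not tested.

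The study used H1, an established human embryonic stem cell line, and measured total RNA on Affymetrix gene arrays in 6 groups of 3 arrays. Embryoid bodies (EB6), which are floating aggregates in which stem cells differentiate, had been cultured for 6 days and came from cells carrying a lentiviral shRNA against KBTBD8, from cells carrying a control shRNA, or from untransduced cells. The same 3 kinds of cell were also measured in the pluripotent state, grown without feeders on Matrigel in mTeSR1 medium. KBTBD8 encodes a substrate adaptor of a cullin ubiquitin ligase, known from work on neural crest formation. All samples are thus 1 cell line, the control cells carry virus as well, and nothing in the labels says whether the replicates were separate cultures, so p-values measure the spread between these arrays, which may be technical.

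MicroRNA genes are transcribed as long primary transcripts that fold into hairpins, which Drosha and DGCR8 cut out in the nucleus and Dicer trims to the mature strand. The mature strand sits in an Argonaute protein and finds messenger RNAs mainly through its seed, and clustered microRNA genes share 1 primary transcript. In human embryonic stem cells the MIR302 cluster is the best known microRNA locus, and let-7, which LIN28 proteins hold back at the precursor stage, accumulates as such cells differentiate. The array was labelled over whole transcripts, in RNA from a silica column. Which stretch each probe set reads, the hairpin or the transcript around it, was not checked, so the values below are signals of the probe sets named for these genes and not levels of mature microRNA.

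The mature sequences below, from RefSeq on GRCh38.p14, belong to the microRNA genes on which the results turn; capitals mark the seed, bases 2 to 8 counted from the 5′ end. The first 4 are shown because they share the letters AAGUGC in or beside the seed, the next 3 because they come from clusters related to the MIR17 cluster, and the last 4 because their change on differentiation differed between 2 kinds of cell in an interaction test.
hsa-miR-302a-3p: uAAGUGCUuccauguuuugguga
hsa-miR-302b-3p: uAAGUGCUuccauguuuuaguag
hsa-miR-93-5p: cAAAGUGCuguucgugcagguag
hsa-miR-106b-5p: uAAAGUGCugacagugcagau
hsa-miR-19b-3p: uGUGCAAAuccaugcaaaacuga
hsa-miR-92a-3p: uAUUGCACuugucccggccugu
hsa-miR-25-3p: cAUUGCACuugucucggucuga
hsa-miR-21-5p: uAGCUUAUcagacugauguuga
hsa-let-7i-5p: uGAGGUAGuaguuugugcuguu
hsa-let-7g-5p: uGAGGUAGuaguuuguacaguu
hsa-miR-103a-3p: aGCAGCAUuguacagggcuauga
MIR302A and MIR302B have the same seed, MIR25 and MIR92A2 share another, and MIRLET7I and MIRLET7G share theirs with MIRLET7D and MIRLET7F1. The mature strands of MIR19B2, MIR92A2 and MIR103A2 are also made from a second gene copy elsewhere in the genome, so their probe sets may read both copies and their values are uncertain in that respect.

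The hairpins of the cluster pair are shown next, as RNA on the minus strand, because these are the stretches that the probe sets are named for; capitals mark the mature strands.
MIR302A, chr4:112648183-112648251: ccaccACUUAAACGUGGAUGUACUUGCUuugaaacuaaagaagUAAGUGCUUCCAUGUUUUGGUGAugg
MIR302B, chr4:112648485-112648557: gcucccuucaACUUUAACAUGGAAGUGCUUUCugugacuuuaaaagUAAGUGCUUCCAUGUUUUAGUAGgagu
The hairpins are 233 bases apart, inside the span of the noncoding host gene MIR302CHG and, antisense, of the protein-coding gene LARP7. MIR19B2 and MIR92A2 lie 58 bases apart on chromosome X in MIR106AHG, MIR106B and MIR25 lie 349 bases apart in MCM7, and MIR21 lies within VMP1 on chromosome 17.

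Both arrays labelled KBTBD8 shRNA replicate 2 stood apart from their labels. Over all tested probe sets, the library labelled pluripotent correlated at 0.911 with its own group and at 0.989 with the KBTBD8 shRNA embryoid bodies. The library labelled EB6 correlated at 0.918 with its own group and at 0.993 with the pluripotent KBTBD8 shRNA arrays. Of the 54 microRNA probe sets, 41 and 33 were nearer the other state in these 2 libraries. The labels were not changed. Tests below use the other 16 arrays, so each KBTBD8 shRNA group has 2, and the values of the 2 libraries and the results on all 18 arrays are given where they touch a result. KBTBD8 itself had log2 signals of 5.13 and 4.96 on the fitted pluripotent KBTBD8 shRNA arrays, against 6.39, 7.09 and 7.03 on the pluripotent control shRNA arrays, a difference of -1.79 ± 0.26 (SE; limma, adjusted p = 3.2e-04). In EB6 the difference in KBTBD8 was 0.01 ± 0.26 (limma, adjusted p = 0.998), with control shRNA levels between 4.43 and 5.04, so the knockdown could not be checked there. The library labelled pluripotent replicate 2 read 4.55 and the library labelled EB6 replicate 2 read 5.12 for KBTBD8.

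Differentiation of untransduced cells, EB6 against pluripotent, changed 17 of the 54 microRNA probe sets, 6 higher and 11 lower, at an adjusted p under 0.05 over all 15009 probe sets (limma). Of all probe sets tested, 51.8% were called in this comparison, 25.6% higher and 26.2% lower, beside 31.5% of the 54. The median difference was -0.13 over the 54 and -0.04 over all probe sets, and 4 of the 54 differed by 2-fold or more. The largest falls were those of MIR302A, MIR302B and MIR21, and the largest rise was that of MIR19B2. With each array left out in turn, 8 of the 17 kept their call throughout: MIR302A, MIR302B, MIR21, MIR19B2, MIR92A2, MIR375, MIRLET7G and MIRLET7I. MIR19B2 and MIR92A2 entered the tests through EB6, where they were higher, so their kept calls add no support.

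MIR302A, the marker of this class in pluripotent cells, had log2 signals of 4.17, 5.48 and 4.80 in untransduced EB6, against 9.86, 9.18 and 8.91 in untransduced pluripotent cells. The EB6 arrays lay far below the pluripotent arrays with no overlap. On 2 of the 3 EB6 arrays the signal ranked below the 40th percentile of its array (21.2, 43.1 and 32.3), against percentiles of 93.2, 90.1 and 88.0 in the pluripotent state. MIR302A fell by 4.49 ± 0.27 on the log2 scale (SE; limma, adjusted p = 1.3e-09), a value measured against signals low on the EB6 arrays. An exact permutation test over the 3 against 3 arrays gave p = 0.1, the smallest it can give.

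MIR302B, its neighbour in the cluster, read 4.03, 4.35 and 3.96 in untransduced EB6, against 7.94, 6.89 and 7.04 in the pluripotent cells. The groups were again well apart, and MIR302B fell by 3.17 ± 0.20 (limma, adjusted p = 2.6e-09). All 3 of these EB6 signals were below the 40th percentile of their arrays (18.9 to 24.7). Over the 16 arrays MIR302B followed MIR302A with a Pearson r of 0.98, a description over arrays that share groups and labelling. MIR302C, MIR302D, MIR367 and MIR371 with its neighbours, also characteristic of pluripotent cells, were not analysed here.

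**Figure D1:**
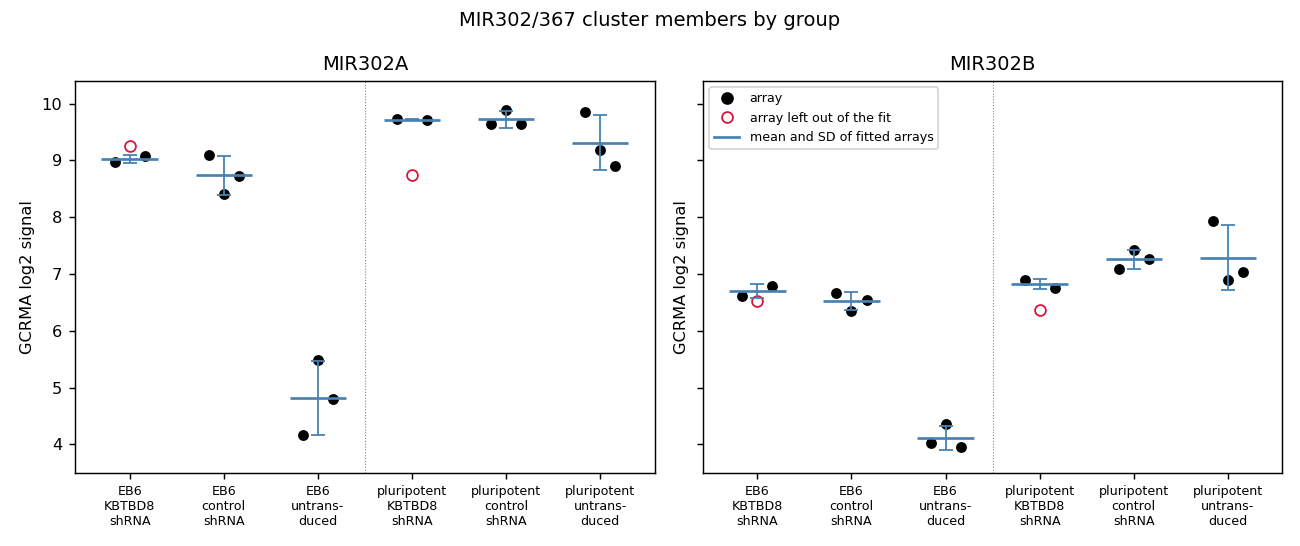
GCRMA log2 signal of MIR302A and MIR302B on every array, by group; blue lines are group means with SD over the fitted arrays, and open circles are the 2 libraries labelled KBTBD8 shRNA replicate 2. Untransduced EB6 stand alone at 4.17 to 5.48 for MIR302A, below every other group for both genes.

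Embryoid bodies from transduced cells had far higher signals of both genes. In control shRNA cells, MIR302A read 9.09, 8.41 and 8.72 in EB6, against 9.64, 9.89 and 9.64 in pluripotent cells. The groups did not overlap but lay close, and MIR302A fell by 0.98 ± 0.27 (limma, adjusted p = 0.00673). MIR302B read 6.67, 6.35 and 6.55 in control shRNA EB6, against 7.08, 7.43 and 7.26 in the pluripotent state, and fell by 0.73 ± 0.20 (limma, adjusted p = 0.00683).

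In KBTBD8 shRNA cells, MIR302A read 8.98 and 9.08 in EB6, against 9.73 and 9.71 in pluripotent cells. The groups did not overlap, but the difference of -0.69 ± 0.33 did not pass (limma, adjusted p = 0.114), and an exact test of 2 against 2 arrays cannot go below p = 0.333. The library labelled EB6 replicate 2 read 9.25 and the library labelled pluripotent replicate 2 read 8.74, the opposite order. MIR302B read 6.61 and 6.79 in KBTBD8 shRNA EB6, against 6.89 and 6.76 in pluripotent cells, which overlapped, a difference of -0.13 ± 0.25 (limma, adjusted p = 0.731).

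The change of MIR302A on differentiation differed between control shRNA and untransduced cells by 3.51 ± 0.38 (interaction, limma, adjusted p = 9.6e-06), and that of MIR302B by 2.44 ± 0.29 (adjusted p = 2.1e-05). Between KBTBD8 shRNA and control shRNA cells the same interaction was 0.29 ± 0.43 for MIR302A (adjusted p = 0.739) and 0.61 ± 0.32 for MIR302B (adjusted p = 0.273), and did not pass. The order of the group means of MIR302A was untransduced EB6 (4.82 ± 0.66, SD), control shRNA EB6 (8.74 ± 0.34), KBTBD8 shRNA EB6 (9.03 ± 0.07), untransduced pluripotent (9.31 ± 0.49), and then KBTBD8 shRNA (9.72 ± 0.02) and control shRNA pluripotent cells (9.72 ± 0.15). Above the lowest group, the arrays of each pair of neighbours in that order overlapped.

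Cell type markers also differed between the groups. Of 8 pluripotency markers, 7 were lower in EB6 than in pluripotent cells in each of the 3 kinds of cell. The median differences were -1.16 in KBTBD8 shRNA, -1.66 in control shRNA and -2.29 in untransduced cells. Of all probe sets tested, 20.8%, 25.0% and 26.2% were called lower in these comparisons, in that order. The mean log2 level of the 8 markers was 8.70 to 8.82 in KBTBD8 shRNA EB6, 8.36 to 8.39 in control shRNA EB6 and 7.05 to 7.25 in untransduced EB6, and 9.84 to 10.41 across the pluripotent groups. In control shRNA EB6 against untransduced EB6, 7 of 8 pluripotency markers and all 7 neural crest markers were higher, and the mean level of the neural crest markers was 9.23 to 9.36 against 5.64 to 5.79. All 3 tested trophoblast markers, 5 of 7 endoderm and yolk sac markers and 3 of 4 tested mesoderm and blood markers were higher too. Of 9 neural markers 2 were higher and 5 lower. Of all probe sets tested, 44.6% were called between these 2 groups and 24.5% were called higher. The part of cell makeup in the microRNA values was not tested, and in these bulk samples fewer cells of a type and less RNA per cell cannot be told apart.

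The 5 other single-symbol genes whose levels ran most like MIR302A over the 16 arrays were CDH1 (Pearson r 0.981), PDLIM1 (0.981), NMRK2 (0.978), ANXA5 (0.975) and EPCAM (0.974). CDH1 and EPCAM encode cell adhesion molecules of epithelia and of pluripotent cells. CDH1 had group means of 10.55 in KBTBD8 shRNA EB6, 9.83 in control shRNA EB6 and 6.35 in untransduced EB6, against 10.30, 10.34 and 10.34 in the matching pluripotent groups. These correlations are a description over arrays of 6 groups, and untransduced EB6 set them apart.

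MIR21, a microRNA known from mesenchymal and many proliferating cells, was the third large fall in untransduced cells. It read 5.47, 5.44 and 5.03 in untransduced EB6, against 6.95, 7.55 and 8.05 in pluripotent cells, and fell by 2.20 ± 0.20 (limma, adjusted p = 1.4e-07). In control shRNA cells it moved the other way, with 7.63, 7.73 and 7.69 in EB6 against 6.76, 7.0 and 7.02 in pluripotent cells, a rise of 0.75 ± 0.20 (adjusted p = 0.00471). In neither kind of cell did the states overlap.

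KBTBD8 shRNA cells gave MIR21 signals of 7.66 and 7.90 in EB6, against 7.0 and 7.16 in pluripotent cells, a rise of 0.71 ± 0.24 (limma, adjusted p = 0.0302) that lost its call without any 1 of these 4 arrays (0.59 to 0.82). The libraries labelled EB6 and pluripotent replicate 2 read 6.83 and 7.97, and on all 18 arrays the difference was 0.09 and did not pass (adjusted p = 0.957). The differentiation change of MIR21 differed between control shRNA and untransduced cells by 2.96 ± 0.28 (interaction, adjusted p = 2.0e-06). VMP1, the gene that spans MIR21, fell by 0.31 ± 0.11 in untransduced cells (adjusted p = 0.0246), and differed by -0.24 ± 0.11 in control shRNA cells without passing (adjusted p = 0.0807).

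Of the MIR17 cluster and its paralogous clusters, which are known for promoting proliferation, 5 of the 15 genes were tested. MIR19B2, whose seed differs from those of MIR302A and MIR25, rose on differentiation in all 3 kinds of cell. It entered the tests through the state in which it was higher: all 8 fitted EB6 arrays were above the 40th percentile (45.7 to 66.2), and all 8 fitted pluripotent arrays were below it (22.4 to 35.9), so a difference was built into the filter. It read 5.64, 6.62 and 5.97 in untransduced EB6 against 4.21, 4.24 and 4.52 in pluripotent cells, a rise of 1.75 ± 0.19 (limma, adjusted p = 1.3e-06). It read 6.75, 6.81 and 7.04 in control shRNA EB6 against 4.91, 5.21 and 4.93 in pluripotent cells, a rise of 1.85 ± 0.19 (adjusted p = 8.9e-07). It read 5.87 and 6.34 in KBTBD8 shRNA EB6 against 5.02 and 4.99 in pluripotent cells, a rise of 1.10 ± 0.23 (adjusted p = 0.00143). The states did not overlap in any of the 3, apart from the libraries labelled replicate 2, which read 4.91 for EB6 and 6.12 for pluripotent, and with them the difference was 0.33 (18 arrays, adjusted p = 0.845).

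MIR92A2, next to MIR19B2 on chromosome X, rose by 0.72 ± 0.25 in KBTBD8 shRNA (limma, adjusted p = 0.0336), 1.01 ± 0.21 in control shRNA (adjusted p = 7.4e-04) and 0.91 ± 0.21 in untransduced cells (adjusted p = 0.00159). It read 4.92, 6.05 and 5.21 in untransduced EB6, against 4.54, 4.43 and 4.50 in pluripotent cells. The EB6 arrays were spread over more than 1 log2 unit, with replicate 2 the highest, and without that array the rise was 0.58 (adjusted p = 0.00323). MIR92A2 too entered the tests through EB6, with 6 of 8 fitted EB6 arrays above the 40th percentile, against none of the 8 fitted pluripotent arrays (25.2 to 37.6). The KBTBD8 shRNA rise lost its call without replicate 1 or 3 of EB6 or replicate 3 of pluripotent cells (0.57 to 0.75), and did not pass on 18 arrays (0.29, adjusted p = 0.83).

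MIR106B, MIR93 and MIR25, which lie together in MCM7, a DNA replication helicase gene, did not pass in any differentiation comparison. Their differences, in that order, were 0.11, 0.12 and 0.47 in KBTBD8 shRNA, 0.22, 0.30 and 0.29 in control shRNA and 0.11, 0.34 and 0.03 in untransduced cells. MCM7 itself fell by 0.34 ± 0.09 in control shRNA cells (limma, adjusted p = 0.00493) and rose by 0.57 ± 0.09 in untransduced cells (adjusted p = 5.9e-05). MIR17HG, the host transcript of the MIR17 cluster itself, differed by 0.20 ± 0.22 in KBTBD8 shRNA cells without passing (adjusted p = 0.524), and rose by 0.68 ± 0.18 in control shRNA (adjusted p = 0.00445) and by 0.88 ± 0.18 in untransduced cells (adjusted p = 6.2e-04).

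Of the 12 let-7 genes listed, 10 had a probe set and 4 were tested. MIRLET7I read 7.22, 7.69 and 7.32 in untransduced EB6, against 6.61, 6.62 and 6.78 in pluripotent cells, with no overlap, and rose by 0.74 ± 0.11 (limma, adjusted p = 5.1e-05). MIRLET7G read 5.52, 6.05 and 5.76 in untransduced EB6, against 5.13, 5.07 and 5.40 in pluripotent cells, also with no overlap, and rose by 0.58 ± 0.16 (adjusted p = 0.00708). MIRLET7D went the other way, falling by 0.29 ± 0.10 (adjusted p = 0.0235, a call lost in 5 of 24 alternative settings), and MIRLET7F1 differed by -0.03 ± 0.24 (adjusted p = 0.922).

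In control shRNA cells 7 of the 54 microRNA probe sets were called on differentiation, 5 higher and 2 lower, beside 47.7% of all probe sets (22.7% higher and 25.0% lower). None of the 4 let-7 genes was among them in the limma fit, also at an unadjusted p under 0.05. MIRLET7I differed by 0.11 ± 0.11 (limma, adjusted p = 0.445) and MIRLET7G by -0.18 ± 0.16 (adjusted p = 0.378). The differentiation change differed between control shRNA and untransduced cells for 5 of the 54, beside 16.5% of all probe sets. The difference was -0.63 ± 0.16 for MIRLET7I (interaction, limma, adjusted p = 0.0139) and -0.76 ± 0.23 for MIRLET7G (adjusted p = 0.0321), whose call was lost in 9 of 24 alternative settings.

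**Figure D2:**
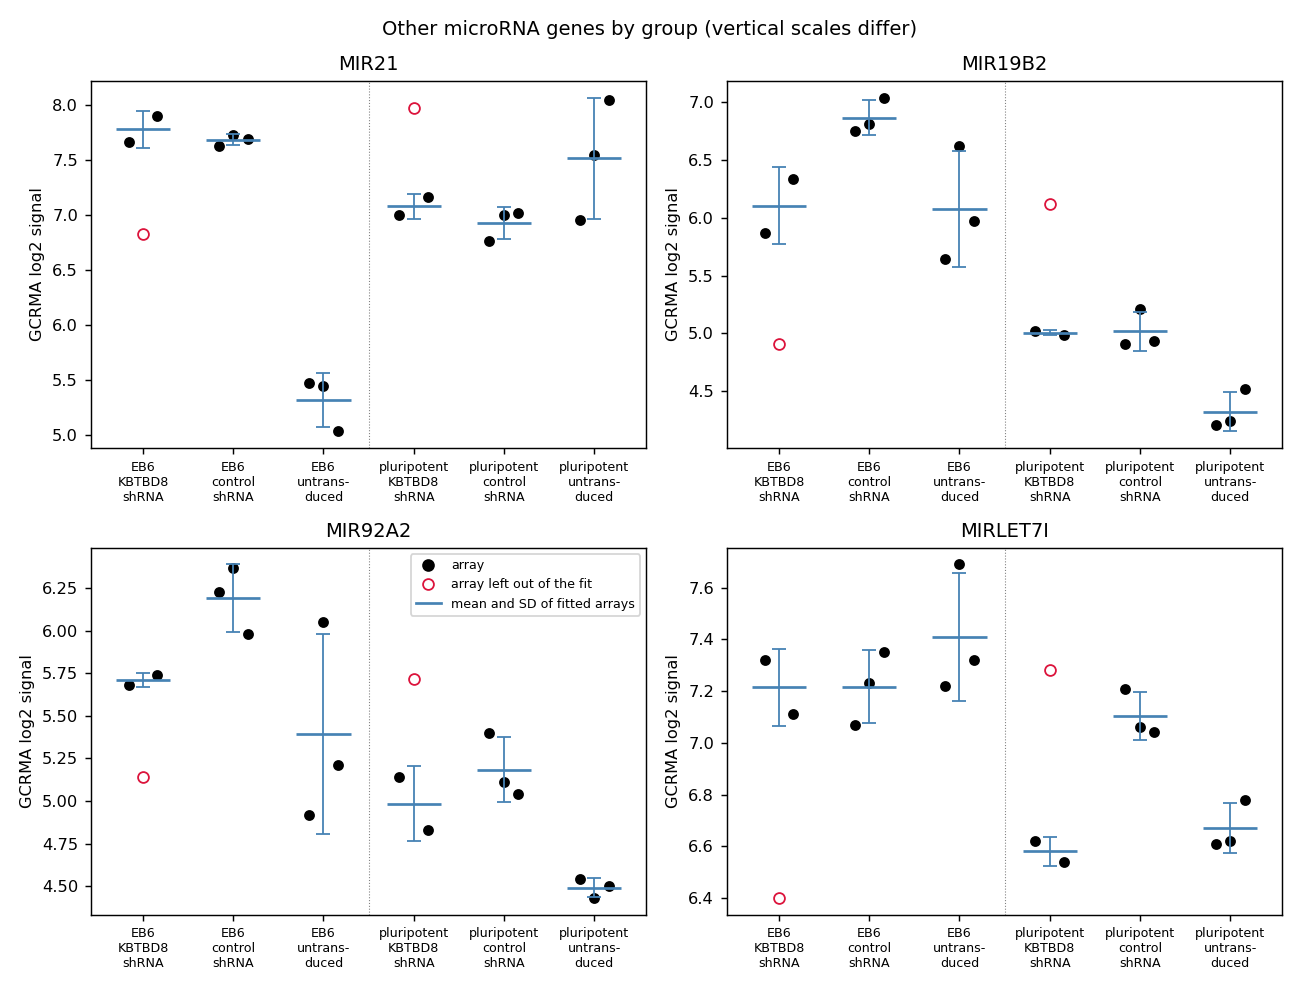
GCRMA log2 signal of MIR21, MIR19B2, MIR92A2 and MIRLET7I on every array by group, with means and SD of the fitted arrays in blue and the libraries labelled KBTBD8 shRNA replicate 2 as open circles. MIR21 is low in untransduced EB6 (5.03 to 5.47), MIR19B2 is higher in EB6 than in pluripotent cells in all 3 kinds of cell, and the open circles lie nearer the other state.

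The other called members in untransduced cells changed by less than 1 log2 unit. MIR186, within ZRANB2, read 5.49, 6.72 and 5.84 in EB6 against 5.28, 4.74 and 5.28 in pluripotent cells and rose by 0.92 ± 0.29 (limma, adjusted p = 0.0138). Without replicate 2 of untransduced EB6 the difference was 0.56 and did not pass (adjusted p = 0.0889), and without replicate 2 of untransduced pluripotent cells it was 0.73 (adjusted p = 0.0695). MIR186 also rose in control shRNA cells, by 1.00 ± 0.29 (adjusted p = 0.00879), and MIR103A2, within the pantothenate kinase gene PANK2, rose by 0.32 ± 0.12 in control shRNA (adjusted p = 0.0408) and 0.33 ± 0.12 in untransduced cells (adjusted p = 0.0308), calls that were lost in 9 and 6 of 25 alternative settings.

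The remaining falls were those of MIR138-1 (-0.52), MIR375 (-0.51), MIR193A (-0.46), MIR150 (-0.46), MIR200B (-0.42), MIR23A (-0.42) and MIR99A (-0.37). MIR375 is known from neuroendocrine and pancreatic islet cells, MIR200B holds back the epithelial-to-mesenchymal transition, and MIR150 is known from lymphocytes. Their adjusted p-values ran between 0.00848 for MIR375 and 0.0391 for MIR23A. In control shRNA cells none of the 7 passed. Of the 7, MIR375 alone kept its call with each array left out in turn, and MIR99A had -0.18 without replicate 2 of untransduced pluripotent cells (adjusted p = 0.172).

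Of 35 genes on the neural microRNA list 9 were tested, and in untransduced cells 1 fell (MIR138-1) and none rose, with a median of -0.16, while 7 of 9 neural marker genes rose with a median of 2.33. In KBTBD8 shRNA and control shRNA cells none of the 9 passed in limma, also at an unadjusted p under 0.05, with medians of 0.14 and 0.03. All 3 MIR124 and both MIR9 probe sets, the classic neural microRNAs, were below the filter, with MIR124-2 the brightest (mean 5.10). Of 53 genes in the DLK1-DIO3 clusters 16 had a probe set and none passed the filter, and of 46 in the C19MC cluster 2 had one and none passed.

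In KBTBD8 shRNA cells 5 of the 54 were called on differentiation, 4 higher and 1 lower, beside 38.1% of all probe sets (17.3% higher and 20.8% lower). On all 18 arrays limma called none of the 54, none of them at an unadjusted p under 0.05, beside 0.00% of all probe sets called. MIRLET7I read 7.32 and 7.11 in EB6 against 6.62 and 6.54 in pluripotent cells and rose by 0.63 ± 0.14 (limma, adjusted p = 0.00195). MIR103A2 read 6.27 and 6.22 in EB6 against 6.61 and 6.66 in pluripotent cells and fell by 0.39 ± 0.15 (adjusted p = 0.0499), a call that was lost in 16 of 25 alternative settings (-0.43 to -0.07). The others were MIR19B2, MIR92A2 and MIR21, given above. With each array left out in turn, MIRLET7I kept its call throughout, as did MIR19B2, for which the filter built in a difference. At an unadjusted p under 0.05, 10 of the 54 passed on the 16 arrays (18.5%, beside 45.8% of all probe sets).

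**Figure D3:**
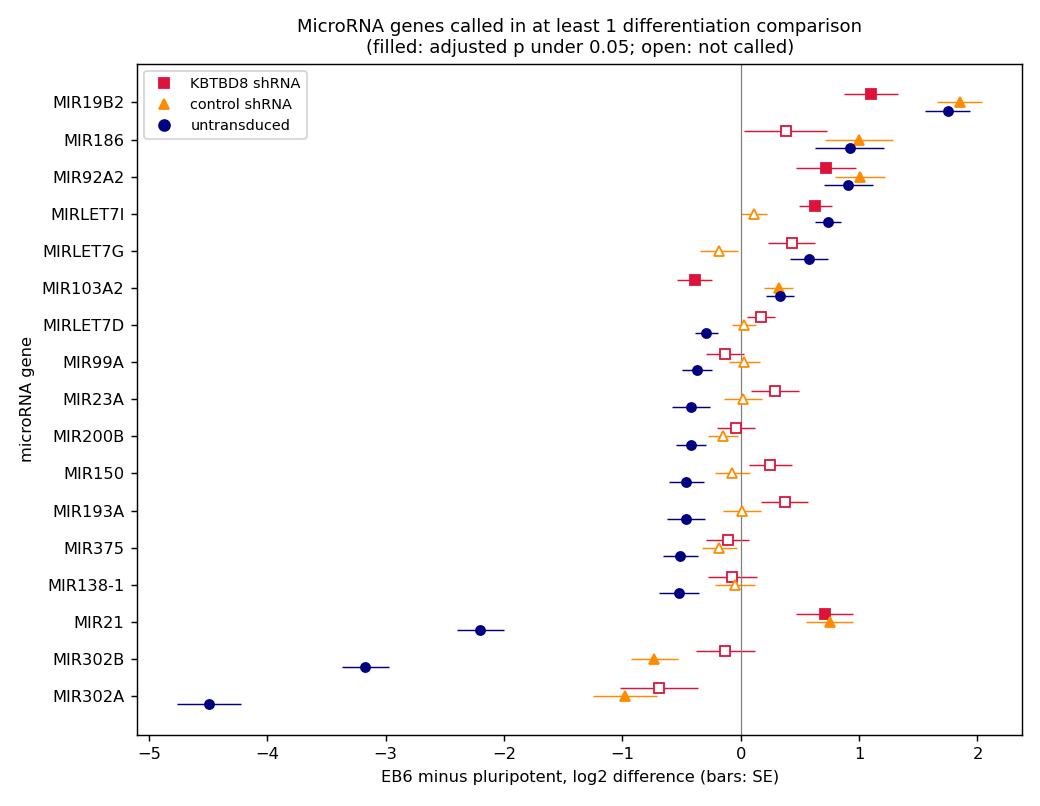
EB6 minus pluripotent log2 difference (horizontal axis; bars are SE) of the 17 microRNA genes called in at least 1 differentiation comparison, for KBTBD8 shRNA (squares), control shRNA (triangles) and untransduced cells (circles); filled symbols passed. MIR302A and MIR302B fall far more in untransduced cells, MIR21 has opposite signs, and MIR19B2 and MIR92A2 rise in all 3.

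In all, 4 microRNA genes (7.41% of the 54, beside 23.1% of all tested probe sets) were called in all 3 differentiation comparisons, in either direction. MIR19B2 and MIR92A2 rose in all 3, and both entered the tests through EB6. MIR21 and MIR103A2 did not keep 1 direction: MIR21 fell in untransduced cells alone, and MIR103A2 fell in KBTBD8 shRNA cells alone. In at least 1 of the 9 comparisons, 26 (48.1%, beside 81.6%) were called. The comparisons share arrays, so these counts are not independent. The highest and lowest of the 6 group means differed by 1 log2 unit or more for 6 of the 54 (MIR302A 4.90, MIR302B 3.18, MIR19B2 2.54, MIR21 2.47, MIR92A2 1.70 and MIR186 1.07) and by under 0.5 for 28.

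KBTBD8 shRNA against control shRNA called 1 of the 54 microRNA probe sets in EB6, beside 5.66% of all probe sets, and 1 in pluripotent cells, beside 13.5%. Without adjustment, 2 of the 54 in EB6 (3.70%, beside 15.9% of all probe sets) and 6 in pluripotent cells (11.1%, beside 27.4%) had p under 0.05. On all 18 arrays limma called 0 of the 54 in either state (3 in EB6 and 1 in pluripotent cells without adjustment), beside 2.39% of all probe sets in EB6 and 4.97% in pluripotent cells. In pluripotent cells MIRLET7I read 6.62 and 6.54 with the KBTBD8 shRNA, against 7.21, 7.06 and 7.04 with the control shRNA, and fell by 0.52 ± 0.13 (limma, adjusted p = 0.0136). The arrays did not overlap, but the call was lost without either fitted KBTBD8 shRNA array (-0.56 and -0.48), and the library labelled pluripotent replicate 2 read 7.28, and on 18 arrays the difference was -0.29 (adjusted p = 0.53). MIRLET7G (-0.48 ± 0.18, adjusted p = 0.0961) and MIR188 (-0.46 ± 0.17, adjusted p = 0.0797) had the next largest differences and did not pass.

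In EB6, MIR19B2 read 5.87 and 6.34 with the KBTBD8 shRNA, against 6.75, 6.81 and 7.04 with the control shRNA, with no overlap, and fell by 0.76 ± 0.21 (limma, adjusted p = 0.0484). The call was close to the threshold and was lost in 17 of 25 alternative settings. The library labelled EB6 replicate 2 read 4.91, and with it the difference was -1.16 (18 arrays, adjusted p = 0.102). MIR92A2 (-0.49 ± 0.23, adjusted p = 0.322) and MIR103A2 (-0.39 ± 0.14, adjusted p = 0.128) followed and did not pass. MIR302A differed by 0.29 ± 0.30 in EB6 (adjusted p = 0.771) and 0.00 ± 0.30 in pluripotent cells (adjusted p = 1). MIR302B differed by 0.18 ± 0.23 in EB6 (adjusted p = 0.824) and -0.43 ± 0.23 in pluripotent cells (adjusted p = 0.236).

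All 7 neural crest markers were lower in KBTBD8 shRNA EB6 than in control shRNA EB6, with a median of -1.95 and a mean level of 7.27 to 7.46 against 9.23 to 9.36, as were 4 of 7 endoderm and yolk sac markers. Of 9 neural markers 4 were higher and 2 lower. Of all probe sets tested, 5.66% were called between these groups. The part of these markers in the difference of MIR19B2 was not tested. The differentiation change differed between KBTBD8 shRNA and control shRNA cells for 1 of the 54, MIR103A2, beside 9.49% of all probe sets. That interaction was -0.71 ± 0.19 (limma, adjusted p = 0.0296), its call was lost in 10 of 25 alternative settings, and it did not pass on 18 arrays (-0.39, adjusted p = 0.384), where 3.42% of all probe sets did.

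Control shRNA against untransduced cells gave more calls. In EB6, 16 of the 54 were called, all higher, beside 44.6% of all probe sets in either direction and 24.5% called higher. In pluripotent cells 11 were called, 9 higher and 2 lower, beside 29.0% of all probe sets (16.9% higher and 12.2% lower). Of these, 7 were called in both states, which is 43.8% of the 16 and 63.6% of the 11. Over all tested probe sets the shares were 40.5% of the EB6 calls and 62.2% of the pluripotent calls. With each array left out in turn, 12 of the 16 and 4 of the 11 kept their call throughout.

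Low signals as a whole were higher on transduced arrays, a fact that stands beside all of these calls. The 40th percentile was 5.38 to 5.59 on the 12 transduced arrays, against 5.26 to 5.39 on the 6 untransduced arrays. The 119 microRNA probe sets below the filter had a median difference of 0.07 in EB6 and 0.12 in pluripotent cells, and the 4332 other single-symbol probe sets below the filter had 0.10 and 0.11. The median over the 54 was 0.27 in EB6 and 0.15 in pluripotent cells, against 0.04 over all tested probe sets in both. Most of the 54 were dim, however, and 39 had a mean log2 signal under 6.5. These 39 had medians of 0.26 in EB6 and 0.16 in pluripotent cells. The 5108 other tested probe sets under 6.5 had 0.15 and 0.08. With no filter, 40 of the 173 were called in EB6 (23.1%, beside 38.9% of all 19460 probe sets), 36 of them higher (20.8% beside 22.5%). In pluripotent cells 37 were called (21.4% beside 25.4%), 30 of them higher (17.3% beside 15.8%). The part of this shift in the smaller differences was not tested.

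In EB6, MIR302A was 3.92 ± 0.27 higher with the control shRNA than in untransduced cells (limma, adjusted p = 2.1e-08), MIR302B 2.41 ± 0.20 (adjusted p = 2.0e-07) and MIR21 2.37 ± 0.20 (adjusted p = 1.8e-07). None of their arrays overlapped between the groups, and each kept its call in all 25 alternative settings. MIR302B was below the 40th percentile on all 3 untransduced EB6 arrays. In pluripotent cells MIR302A differed by 0.41 ± 0.27 (adjusted p = 0.274), MIR302B by -0.03 ± 0.20 (adjusted p = 0.924), and MIR21 was lower, with a difference of -0.59 ± 0.20 (adjusted p = 0.0351) and overlapping arrays. That call was lost in 8 of 25 alternative settings, and without replicate 3 of untransduced pluripotent cells the difference was -0.32 (adjusted p = 0.18).

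The next largest differences in EB6 were MIR99A (0.85 ± 0.13, limma, adjusted p = 1.2e-04), MIR92A2 (0.80 ± 0.21), MIR19B2 (0.79 ± 0.19) and MIR193A (0.79 ± 0.16). MIR99A was above the filter on 3 arrays and MIR93 on 7, all of them transduced, so both entered the tests through the side on which they were higher (untransduced percentiles of at most 38.8 and 38.0). In 5 of the 16 calls, and in 5 of the 11 in pluripotent cells, every array of the lower group was below the 40th percentile. MIR25 (0.57 ± 0.15, adjusted p = 0.00622) and MIR93 (0.57 ± 0.16, adjusted p = 0.0106) were also higher, and MIR106B, from the same MCM7 cluster, had 0.38 ± 0.16 and did not pass (adjusted p = 0.0606). MIRLET7F1 (0.67) and MIRLET7D (0.41) were the let-7 genes among the 16. Without replicate 3 of untransduced EB6 the difference of MIRLET7F1 was 0.44 and did not pass (adjusted p = 0.185), and without replicate 2 it was 1.05 (adjusted p = 3.7e-04). MIR7-3, MIR425, MIR191, MIR320A and MIR212, with differences between 0.31 and 0.67, made up the rest.

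In pluripotent cells, MIRLET7G read 6.31, 6.00 and 5.88 with the control shRNA, against 5.13, 5.07 and 5.40 in untransduced cells, and was 0.87 ± 0.16 higher (limma, adjusted p = 0.0013). The groups were clearly apart. MIR92A2 (0.70 ± 0.21), MIR19B2 (0.69 ± 0.19), MIR93 (0.61 ± 0.16), MIR191 (0.56 ± 0.15) and MIR99A (0.45 ± 0.13) came next. For MIR92A2, MIR19B2, MIR93 and MIR99A, no array of either group was above the percentile of the filter, so these differences compare low signals. Their calls were lost in 5 of 24, 2 of 25, 4 of 24 and 7 of 24 alternative settings, in that order, and that of MIR191 in 1 of 24. MIRLET7I was 0.43 ± 0.11 higher (adjusted p = 0.0112), and MIR425 (0.43) and MIR133B (0.33) completed the rises, with calls that were lost in 8 and 14 of 24 alternative settings. MIR138-1 was the larger of the 2 falls, with 5.64, 5.03 and 5.0 in control shRNA cells against 5.65, 6.12 and 5.97 in untransduced cells, -0.69 ± 0.17 (adjusted p = 0.0077).

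**Figure D4:**
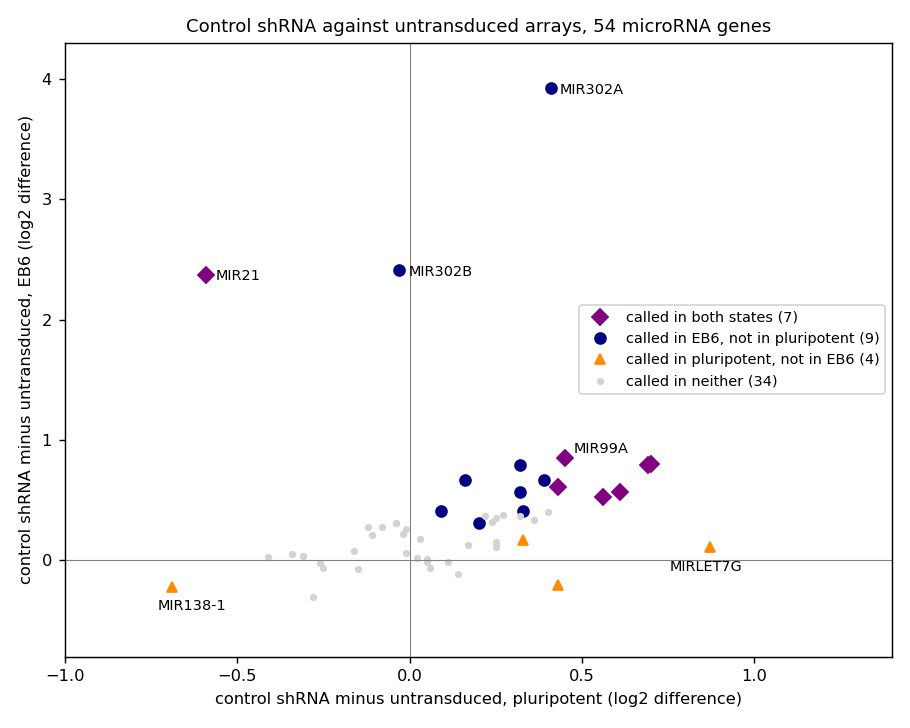
Control shRNA minus untransduced log2 difference of the 54 tested microRNA genes, in pluripotent cells (horizontal) and in EB6 (vertical); symbols show in which state each was called, 7 in both, 9 in EB6 and not in pluripotent cells, 4 the other way and 34 in neither. MIR302A, MIR302B and MIR21 stand far above the rest in EB6, at 3.92, 2.41 and 2.37.

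Hairpins tended to be bright when rich in G and C. A hairpin sequence was found for 155 of the 173, and GC content correlated with mean signal at a Spearman rho of 0.59, a description over probe sets of 1 array design. Hairpins of the tested members had a median GC of 57.8% (51 genes), against 47.1% for those below the filter (104 genes). All 6 members whose group means ranged over 1 log2 unit or more lay among the 13 tested hairpins under 50% GC, and none among the 38 at 50% or more. A dim member could pass the filter through its high group alone, as MIR19B2 and MIR92A2 did. The filter thus favoured wide ranges among dim members, and its part in these counts was not tested. MIR302A has 40.6% GC, MIR302B 38.4%, MIR19B2 34.4%, MIR186 36.0%, MIR92A2 45.3% and MIR21 48.6%. The part of base composition in the measured differences was not tested.

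**Figure D5:**
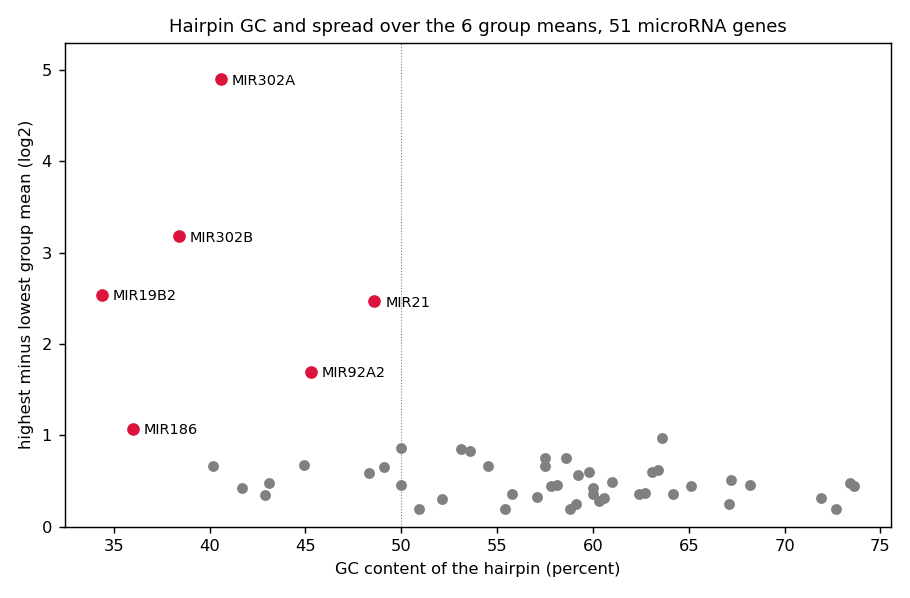
GC content of the hairpin (percent) against the difference between the highest and lowest of the 6 group means (log2) for the 51 tested microRNA genes with a hairpin sequence. The 6 named genes, in red, reach 1 or more, and all lie left of the dotted line at 50%. All 51 had passed the signal filter, which a dim member could pass through its high group alone.

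Of the microRNA genes that lie in a protein-coding host with a tested probe set, 14 pairs over 11 hosts could be set side by side. In untransduced differentiation 4 of these microRNA genes were called (MIR21, MIR103A2, MIR186 and MIRLET7G) and the host was called in the same direction each time. ZRANB2, a splicing factor gene, rose by 0.35 ± 0.09 (limma, adjusted p = 0.00506), PANK2 by 0.34 ± 0.14 (adjusted p = 0.0464) and WDR82, a subunit of histone methyltransferase complexes, by 0.22 ± 0.08 (adjusted p = 0.0312). In this comparison 13 of the 14 pairs had a called host. In control shRNA differentiation 3 of the microRNA genes were called and no host was called in the same direction. LARP7, which spans MIR302A and MIR302B on the opposite strand, was not used here.

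Genes that make and load microRNAs moved in both directions on differentiation. Of 31 tested genes of that list, 14 rose and 6 fell in untransduced cells with a median of 0.20, against -0.04 for all probe sets, of which 51.8% were called. TUT4, which adds uridines to let-7 precursors, rose by 1.04 ± 0.09 (limma, adjusted p = 1.2e-07). AGO4 rose by 0.88 ± 0.08 (limma, adjusted p = 2.5e-07) and XRN1 by 0.82 ± 0.10 (adjusted p = 3.6e-06). Genes of processing and export went both ways. DICER1 and DGCR8 each rose by 0.44 ± 0.09, PRKRA by 0.42, DDX17 by 0.30 and DDX5 by 0.27. TARBP2 fell by 0.39 and XPO5 by 0.27, while DROSHA (0.19) and RAN (-0.13) did not pass. SND1, a nuclease of edited precursors, fell by 0.73 ± 0.08 (adjusted p = 2.6e-06) and AGO2, the slicing Argonaute, by 0.59 ± 0.10 (adjusted p = 1.6e-04). In KBTBD8 shRNA cells 9 rose and 2 fell, beside 38.1% of all probe sets called, and in control shRNA cells 10 rose and 6 fell, beside 47.7%.

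In control shRNA against untransduced cells, LIN28A, which holds back let-7 maturation, was 0.58 ± 0.08 higher in EB6 (limma, adjusted p = 2.4e-05) and 0.28 ± 0.08 higher in pluripotent cells (adjusted p = 0.0131). Its paralog LIN28B was lower, with differences of -0.50 ± 0.09 in EB6 (adjusted p = 2.7e-04) and -0.54 ± 0.09 in pluripotent cells (adjusted p = 4.4e-04). TRIM71, a let-7 target of stem cells, was 0.72 ± 0.10 higher in EB6 and 0.67 ± 0.10 in pluripotent cells. Over the list, 6 rose and 7 fell in EB6, beside 44.6% of all probe sets called, and 7 rose and 6 fell in pluripotent cells, beside 29.0%. With KBTBD8 shRNA none passed in EB6 in limma, also at an unadjusted p under 0.05, and 3 rose and 2 fell in pluripotent cells, beside 13.5%.

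Reported targets moved in both directions. Of 11 tested miR-302 targets, 4 rose and 4 fell in untransduced differentiation with a median of 0.05, beside 51.8% of all probe sets called. BTG1, an antiproliferative gene, rose by 1.25 ± 0.10 in KBTBD8 shRNA (limma, adjusted p = 9.5e-08), 1.41 ± 0.08 in control shRNA (adjusted p = 1.3e-09) and 1.20 ± 0.08 in untransduced cells (adjusted p = 6.1e-09). LEFTY1 and LEFTY2, NODAL antagonists, fell by 0.71 ± 0.13 and 0.81 ± 0.15 in untransduced cells. In control shRNA cells, where MIR302A fell by 0.98, 4 rose and 3 fell (median -0.02), beside 47.7% of all probe sets called. There CDKN1A, the p21 cell cycle inhibitor, rose by 1.17 ± 0.15 (limma, adjusted p = 9.9e-06). In untransduced cells, where the fall of MIR302A was larger, CDKN1A differed by 0.05 ± 0.15 and did not pass (limma, adjusted p = 0.814).

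Of 14 let-7 targets tested, 2 rose and 4 fell in control shRNA cells (median -0.14), beside 47.7% of all probe sets called. In untransduced cells 2 rose and 2 fell with a median of 0.00, beside 51.8%. IGF2BP2 rose by 0.43 ± 0.08 in control shRNA (limma, adjusted p = 5.2e-04) and by 0.55 ± 0.08 in untransduced cells (adjusted p = 4.8e-05). TRIM71 fell by 0.35 ± 0.10 in untransduced cells (adjusted p = 0.0072). CDC25A, a cell cycle phosphatase, fell by 0.71 ± 0.08 in control shRNA cells (adjusted p = 1.6e-06). In untransduced cells CDC25A differed by -0.05 ± 0.08 and did not pass (limma, adjusted p = 0.59). These lists say nothing of direct regulation here, since mature microRNA was not measured on its own.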

How the data were processed

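Total RNA was labelled with NuGEN chemistry and hybridised to a whole-transcript array, per the labels. The deposited values are log2 signals per probe set that the authors made with GCRMA, per the submitters' processing notes; version, background settings and summary level are not given in the sources used here. Array medians ran between 5.85 and 6.12, and the number of arrays limits the precision. Genes came from the platform annotation: 19460 probe sets had 1 symbol, 1754 several and 12083 none. Symbols were updated through RefSeq GRCh38.p14, in which 31 had no current entry. A further 34 probe sets with several symbols, a microRNA among them, were not used.

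Single-symbol probe sets above the array's 40th percentile on 3 or more arrays (15009) were fitted with limma 3.58.1 in R 4.3.3 (lmFit, eBayes), 6 groups and 16 arrays, with Benjamini-Hochberg adjustment over all of them and calls at an adjusted p under 0.05. The filter looked at all arrays, so a member could pass through its high group alone. Tested on simulated data for untransduced differentiation over the 15009 probe sets, the fit recovered 96 of 100 changes of 1 log2 unit and 100 of 100 of 2 units, with 10 false calls. MIR302A was also tested with exact two-sided permutation tests.

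Named genes were all tested members of the MIR302, MIR17 and let-7 lists, the called members with the largest changes (up to 12 each way in untransduced differentiation, 8 in the other differentiation comparisons, 6 elsewhere, or the 3 largest where fewer than 3 passed), hosts, the genes likest to MIR302A, and 2 to 4 genes of each list. MIR188 follows this rule. The examples of the target lists were not strictly the largest changes. Among let-7 targets in untransduced differentiation, DICER1 (0.44) changed more than TRIM71 (-0.35) but was not an example there. Of the genes that make and load microRNAs more were named, not all by size of change. The members, lists and left-out arrays were chosen with earlier results of these data known. Replicate numbers were checked for pairing: deviations of same-numbered arrays correlated between -0.38 and 0.43, and those of differently numbered arrays between -0.43 and 0.33. Alternatives were all 18 arrays, other filters, all probe sets, quantile normalization, an intensity trend, only the groups compared, a replicate block, each array left out, and arrays centred on their tested median, which was chosen after seeing the data.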

Additional observations from a re-analysis of the deposited data

Results flagged for a closer look

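The change on differentiation differed between control shRNA and untransduced cells by an interaction test for 5 microRNA genes. The difference of the 2 changes was 3.51 for MIR302A, 2.44 for MIR302B and 2.96 for MIR21, so their falls in untransduced embryoid bodies were smaller, or turned to a rise for MIR21, in control shRNA cells. It was -0.63 for MIRLET7I and -0.76 for MIRLET7G, whose rises in untransduced cells did not pass in control shRNA cells. Between KBTBD8 shRNA and control shRNA cells the change of MIR103A2 differed by -0.71, with a fall of 0.39 in KBTBD8 shRNA cells, a call lost in 16 of 25 alternative settings, and a rise of 0.32 in control shRNA cells, a call lost in 9 of 25. No group had 4 or more arrays, so single outlying arrays were not looked for.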

How the results depend on the processing

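Counts of called microRNA genes are given here by comparison, with the count reported above first. Untransduced differentiation (17) gave 26 with no filter and 8 with a 60th percentile filter, and 8 to 21 with each array left out, among them 8 without untransduced EB6 replicate 2 and 10 without untransduced pluripotent replicate 2. Control shRNA differentiation (7) gave 12 with no filter, 12 with only the groups compared, and 5 to 8 without each array. KBTBD8 shRNA differentiation (5) gave 0 on 18 arrays, 2 with all probe sets, and 2 to 7 without each array, 2 being without pluripotent KBTBD8 shRNA replicate 3. KBTBD8 against control shRNA in pluripotent cells (1) gave 0 on 18 arrays, 4 with no filter, 2 with quantile normalization, and 0 to 2 without each array, 0 being without pluripotent KBTBD8 shRNA replicate 3. In EB6 (1) it gave 0 on 18 arrays, 0 with all probe sets, 0 with no filter, 0 with a replicate block, 2 with only the groups compared, and 0 to 1 without each array. Control shRNA against untransduced gave, in pluripotent cells (11), 2 on 18 arrays, 37 with no filter, 3 with the 60th percentile, 6 with only the groups compared, and 7 to 13 without each array, 7 being without control shRNA replicate 1 or 2. In EB6 (16) it gave 10 on 18 arrays, 40, 8 and 25 for the same settings, and 12 to 18 without each array. The KBTBD8 interaction (1) gave 0 on 18 arrays, 0 with all probe sets, 2 with no filter, 3 with only the groups compared, 2 with quantile normalization, 2 with centred arrays, and 0 to 4 without each array, 4 being without untransduced EB6 replicate 2. The control shRNA interaction (5) gave 3 on 18 arrays and 4 to 5 without each array. The cause of these differences was not tested.

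MIR302A, MIR302B, MIR21, MIR19B2 and MIRLET7I kept their untransduced differentiation calls in all 25 settings, with MIR302A between -4.83 and -4.17. MIR19B2 entered the tests through EB6, where it was higher, so its kept call adds no support. No called difference changed sign. The uncalled difference of MIR302B between control shRNA and untransduced pluripotent cells (-0.03) ran between -0.23 and 0.29 with each array left out. Of 16 arrays, 8 correlated best with an array of their own replicate number. The median correlation of deviations was 0.03 for same-numbered and -0.02 for differently numbered arrays. Whether same-numbered arrays were paired is not settled by these values. The replicate block ended 4 of 64 single-gene calls. Among them was that of MIR19B2 with KBTBD8 against control shRNA in EB6 (-0.69, limma, adjusted p = 0.0559). Low signal limits what could be measured: 109 of the 173 microRNA probe sets were above the 40th percentile on no array, and 27 of the 54 tested were above it on all 18.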
